A study of Saccharomyces cerevisiae with 232 samples.

Results

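18S rRNA is the RNA of the small ribosomal subunit. Its 1800 positions, as listed for the yeast gene RDN18-1, were counted in all 32 RiboMeth-seq libraries of the study, out of 5475 positions of 4 rRNAs in the same count table. Every one of the 1800 positions belongs to the account given here. No measured value entered their choice. In the R64 reference, the build that the submitters' processing notes call sacCer3, RDN18-1 lies on the minus strand at chrXII:455933-457732, within the rDNA repeats. The reference annotates 2 copies of the gene with the same sequence, so the reads cannot be assigned to a copy. Nucleotides are numbered here from the mature 5′ end.

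The libraries were made from total RNA of Saccharomyces cerevisiae grown in YPD to mid-log phase, and the labels list cycloheximide for every one. In the set called plain here, 6 deletion strains (rtt10D, trm732D, trm7D, trm44D, trm13D, trm3D) had 2 libraries each, as had BY4741, their parent. Each deletion strain is BY4741 with the named gene replaced by kanMX. The end-treatment set held trm3D, trm7D and BY4741 with 6 libraries each, 1 for each combination of an end treatment (T4PNK, AnP or rSAP) and a label f10 or f20. The header of the count table names the end-treatment libraries rep1 and the plain libraries rep2. The protocol names T4 polynucleotide kinase, Antarctic phosphatase and shrimp alkaline phosphatase as 3′-end repair enzymes. The meaning of f10 and f20 and the enzyme of the plain set are not given in the sources used here. The labels do not say whether libraries of a strain came from separate cultures, so the p-values below measure only the spread between these libraries. An rRNA count table holds no measure of the deleted genes, so the genotypes could not be checked in it.

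Ribosomal RNA is modified at fixed nucleotides while ribosomes are assembled. Box C/D snoRNAs pair with the rRNA and guide the methylase Nop1 (fibrillarin) to the 2′ hydroxyl of a ribose, and box H/ACA snoRNAs guide Cbf5 to turn uridine into pseudouridine. RiboMeth-seq breaks RNA with alkali and reads the ends. A 2′-O-methyl group blocks the cut on the 3′ side of its nucleotide, so fewer fragments begin at the next position. The deleted genes act on another RNA: Trm7 is a 2′-O-methyltransferase of the tRNA anticodon loop with Trm732 and Rtt10 (Trm734) as partners, and Trm3, Trm13 and Trm44 methylate riboses elsewhere in tRNA. Their comparison with BY4741 in 18S rRNA asks whether loss of a tRNA ribose methyltransferase leaves the protection of rRNA nucleotides as it was.

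The measure used throughout is the percentage of ends left. It is the count of 5′ ends at the position after a nucleotide, as a percentage of the weighted mean count of the 6 positions on each side. A nucleotide with 25% or less, a protection score of 0.75 or more, is called protected. The reference annotation's snoRNA notes name 17 ribose methylation sites and 14 pseudouridines in 18S rRNA. The sequences below carry the results that follow. Each window runs 5′ to 3′ from 10 nucleotides before to 10 nucleotides after the site, in RNA letters of the R64 minus strand, with the named nucleotide in capitals. The following 7 ribose methylation sites had fewer ends in trm7D.
A100, chrXII:457623-457643: cgaauggcucAuuaaaucagu
A796, chrXII:456927-456947: cgaauauauuAgcauggaaua
A974, chrXII:456749-456769: uuaaucaagaAcgaaaguuag
G1126, chrXII:456597-456617: auggucgcaaGgcugaaacuu
U1269, chrXII:456454-456474: uuguggguggUggugcauggc
G1271, chrXII:456452-456472: guggguggugGugcauggccg
C1639, chrXII:456084-456104: guacacaccgCccgucgcuag
The following 6 pseudouridines had more ends in trm7D.
U106, chrXII:457617-457637: gcucauuaaaUcaguuaucgu
U120, chrXII:457603-457623: uuaucguuuaUuugauaguuc
U211, chrXII:457512-457532: gauguauuuaUuagauaaaaa
U302, chrXII:457421-457441: uucauucaaaUuucugcccua
U632, chrXII:457091-457111: aagcucguagUugaacuuugg
U766, chrXII:456957-456977: aauuagagugUucaaagcagg
Of the other protected nucleotides, the following 2 had the fewest ends in their least protected BY4741 library and are not named in the annotation's notes.
G562, chrXII:457161-457181: ggcaagucugGugccagcagc
G1107, chrXII:456616-456636: uuuggguucuGgggggaguau
U1269 and G1271 lie within each other's window of neighbours, and 49 of the 75 protected nucleotides outside the list of methylation sites stand before a G, as G1107 does.

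The libraries held 14.1 to 26.6 M 5′ ends in all (median 19.6 M), of which 2.93 to 6.26 M (19.9% to 23.8%) fell in 18S rRNA. The median 18S position had 674 to 1579 ends, depending on the library. Ends grew scarce toward the 3′ terminus, and 36 table positions from 1763 onward had none in any library. A value could be given for 1745 nucleotides, 6 to 1750, in every library. The mature 5′ end took 0.173% to 0.283% of the 18S ends in the 9 f20 libraries, against 0.415% to 0.599% in the 9 f10 libraries, and 0.502% to 0.606% in the 14 plain libraries. The f20 values all lay below the f10 values. Across the ratios of position to neighbours, no library had a median correlation with the others under 0.974 (1740 positions that share a sequence, so a description only).

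All 17 annotated ribose methylation sites were protected in both plain BY4741 libraries, and also in all 32 libraries. Of the 1732 other nucleotides with a value, 97 (5.60%) were protected in the same 2 libraries. The ends left at the 17 sites, averaged over the 8 BY4741 libraries, ran from 0.268% to 18.1% with a median of 1.80%, against a median of 92.0% over 1712 nucleotides without annotation.

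**Figure D1:**
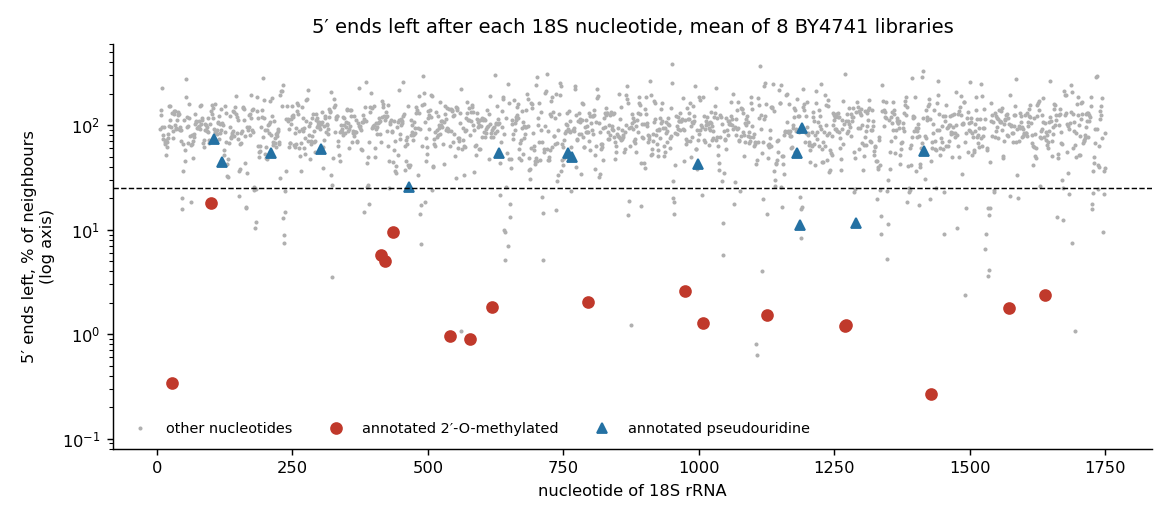
Percentage of 5′ ends left (y axis, log scale) after each nucleotide of 18S rRNA (x axis), as the mean of 8 BY4741 libraries. Red circles are annotated 2′-O-methylated nucleotides, blue triangles annotated pseudouridines, grey points all others, and the dashed line is 25%. All 17 red circles lie below the line, and 12 of the 14 blue triangles lie above it, among the grey points.

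The most protected sites were G1428, guided by SNR56, and A28, guided by SNR74. G1428 had 0.310% and 0.300% of ends left in the plain BY4741 libraries, from 6 ends in each. A28 had 0.345% and 0.502%, from 2 and 3 ends. Counts this low carry a large counting error. No end was counted at A28 in 4 libraries, at C1007 in 1 and at G1428 in 1. In the G1428 library, a trm7D library, 3 ends would have been 0.186%, which is the share that a count of 0 allows.

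The least protected site was A100, guided by SNR51, with 18.3% and 18.04% of ends left in the plain BY4741 libraries and 12.98% to 20.4% over all 32. A436 (SNR87) followed with 8.43% and 9.43%. C414, the site of the U14 snoRNA SNR128, had 6.03% and 5.13%, and A420 (SNR52) had 7.92% and 4.48%. A100 did not overlap with any other annotated site in the 8 BY4741 libraries, where its lowest value was 15.7% and the highest value of A436 was 12.3%. C414 and A420 overlapped with each other there (4.52% to 6.89% and 3.39% to 7.92%). The remaining 11 sites had BY4741 means between 0.894% (U578) and 2.58% (A974). U1269 (SNR55) and C1639 (SNR70), which the annotation lists as predicted, had means of 1.21% and 2.38%.

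The annotated sites were not the only protected nucleotides. In all 8 BY4741 libraries, 75 others stayed at or under 25% of ends left, of which 2 were the pseudouridines U1187 and U1290. The next nucleotide was a G at 49 of these 75 (65.3%), at 5 of the 17 methylation sites, and at 445 of all 1745 nucleotides with a value (25.5%). Runs were common among them: 50 of the 75 stood directly beside another protected nucleotide, as did 2 of the 17 methylation sites. Of the 75, 53 were at least as protected as the least protected methylation site, each taken in its least protected library, and 5 were at or past the median site. Those 5 were G1107, G562, U1106, A1694 and C874. The nucleotides nearest the threshold were U711 at a score of 0.753 inside it and C1006 at 0.7496 outside it.

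G562 was the only 1 of these 5 not followed by a G. It had 1.01% and 1.23% of ends left in the plain BY4741 libraries, from 4 and 5 ends, and at most 1.73% in any of the 32 libraries. G1107 and U1106 precede a run of Gs. G1107 had 1.21% and 0.989% of ends left in the plain BY4741 libraries. In the 6 BY4741 libraries of the end-treatment set it had 0.372% to 0.567%, so the groups did not overlap. They were also separate at C874 (2.02% and 1.997%, against 0.768% to 1.21%) and A1694 (1.33% and 1.58%, against 0.502% to 1.32%). U1106 likewise had 1.51% and 0.882%, against 0.604% to 0.851%. At G562 the groups overlapped, with 0.707% to 1.29% in the end-treatment set. How many of all positions separate the sets in BY4741 was not counted. The remaining 5 of the 10 most protected nucleotides outside the list were A1492, U324, U1117, G1534 and A713, with at most 2.67%, 4.27%, 4.71%, 4.93% and 6.26% of ends left in a BY4741 library.

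Pseudouridines had fewer ends left than most uridines but overlapped with them. In BY4741, all 14 had fewer ends left than the median of the 479 other uridines with a value (103%), and 13 were below their lower quartile (75.3%), but 5 of the 14 were below their 10th percentile (46.1%). Of the 14, 5 were under 50%, as were 55 of the 479 others. The median of the 14 was 54.0% and the range 11.2% to 94.9% (means of 8 libraries). U1187 (SNR36) at 11.2% ± 1.39 and U1290 (SNR83) at 11.6% ± 1.96 had the fewest (SD, n = 8). U466 (SNR189) had 25.6% ± 3.21 and U106 (SNR44) 74.2% ± 5.02. U1191, guided by SNR35 and known to carry further modification beyond pseudouridine, had 94.9% ± 2.96 and was the only 1 of the 14 above that quartile. Of the nucleotides with other base modifications, C1280 and G1575 were not protected, and C1773, near the 3′ end, had no value. C1280, acetylated at its base, had 129% ± 5.22, and G1575, methylated by Bud23 at its base, had 194% ± 5.21 (SD, n = 8).

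**Figure D2:**
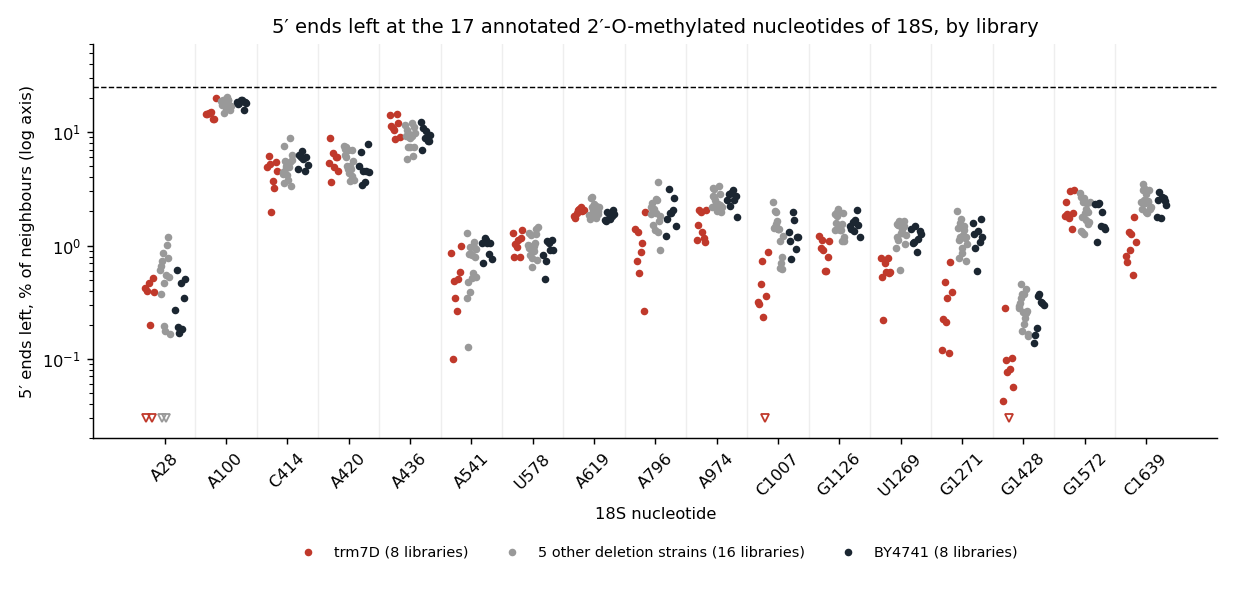
Percentage of 5′ ends left (y axis, log scale) at the 17 annotated 2′-O-methylated nucleotides of 18S rRNA (x axis), 1 point per library. Red points are trm7D, grey points the 5 other deletion strains, black points BY4741. Open triangles at the bottom mark libraries with no end, and the dashed line is 25%. All points lie under 25%, and the trm7D points at G1271 lie from 0.112% to 0.712%.

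In trm7D, the annotated sites moved in 2 opposite directions. In the end-treatment set, with 6 trm7D and 6 BY4741 libraries, 7 of the 12 testable ribose methylation sites had fewer ends left and none had more. At the same time 6 of the 14 pseudouridines had more ends left and none had fewer. Among 1712 tested 18S nucleotides without annotation, 23 (1.34%) were called, 12 higher and 11 lower. In all, 36 of 1740 18S positions (18 higher, 18 lower) passed an adjusted p of 0.05 in edgeR's quasi-likelihood test with Benjamini-Hochberg adjustment. Over the whole table of 5276 positions the test called 2.14%, with 1.19% higher and 0.948% lower.

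G1271, guided by SNR40, changed most. It had 0.112% to 0.479% of ends left in trm7D (median 0.218%), against 0.597% to 1.57% in BY4741 (median 1.18%). The 2 groups did not overlap, and the counts behind them were 2 to 7 ends in trm7D and 12 to 30 in BY4741. The log2 change was -2.21 with a standard error of 0.28 (edgeR adjusted p = 2.10e-05). C1639 had 0.546% to 1.33% in trm7D (median 0.858%), against 1.76% to 2.94% in BY4741 (median 2.59%), again without overlap. Its log2 change was -1.39 with a standard error of 0.19 (edgeR adjusted p = 7.58e-05).

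The other 5 sites that fell were A974 (SNR54), G1126 (SNR41), A796 (SNR53), U1269 and A100. A974 had 1.13% to 2.06% of ends left in trm7D, against 2.21% to 3.10% in BY4741 (log2 change -0.83). G1126 had 0.593% to 1.22% in trm7D, against 1.34% to 2.07% in BY4741 (log2 change -0.83). U1269 had 0.221% to 0.772% in trm7D, against 0.884% to 1.48% in BY4741 (log2 change -0.96). These 3 sites showed no overlap between the strains, nor did A100, given below. How many of all 18S positions had strain groups without overlap was not counted, so no share stands beside these sites or the pseudouridines below. With annotated ribose methylation sites left out of the neighbours, as matters for U1269 and G1271, the same 7 sites were called. Pseudouridines stayed among the neighbours in that setting, as U106 did in the window of A100. A796 had 0.577% to 1.41% in trm7D, against 1.20% to 3.17% in BY4741 (log2 change -0.92), with 1 BY4741 library inside the trm7D range. A100, with 126 to 200 ends per library in trm7D and 165 to 240 in BY4741, had 13.2% to 15.2% in trm7D, against 15.7% to 19.2% in BY4741 (log2 change -0.32). The edgeR adjusted p of these 5 lay between 0.00358 (A974) and 0.0363 (U1269).

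The remaining 5 testable sites did not pass the test. Their log2 changes were -0.43 at C414, 0.17 at A619, 0.24 at U578, 0.32 at A436 and 0.35 at A420, with edgeR adjusted p of 0.246 or more. The median log2 change over the 12 sites was -0.63, against -0.002 over all 1740 18S positions tested. The other 5 sites, A28, A541, C1007, G1428 and G1572, averaged fewer than 10 ends per library and were left out of the test. C1007 (SNR79) had 0% to 0.725% in trm7D from 0 to 4 ends, against 0.769% to 1.98% in BY4741 from 3 to 13 ends, and it was the only 1 of the 5 to pass when the count filter was dropped (edgeR adjusted p = 0.0109). G1428 had at most 7 ends in a trm7D library and at most 10 in a BY4741 library. Without the filter, log2 changes were -1.275 at G1428, -1.14 at A541, -0.34 at A28 and 0.097 at G1572 (edgeR adjusted p of 0.1258 or more). The depth of 18S rRNA was alike in the 2 groups, with 3.53 to 5.27 M ends in trm7D and 3.58 to 6.26 M in BY4741.

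Pseudouridines moved the other way. U302 (SNR49) had 78.4% to 83.8% of ends left in trm7D (median 81.2%), against 53.9% to 63.0% in BY4741 (median 60.4%). Its log2 change was 0.44 with a standard error of 0.05 (edgeR adjusted p = 1.57e-06). U211, another target of SNR49, had 60.9% to 71.7% in trm7D, against 50.6% to 55.7% in BY4741 (log2 change 0.32, edgeR adjusted p = 2.14e-07). The third SNR49 target, U120, had 49.5% to 57.7% in trm7D, against 39.4% to 48.1% in BY4741 (log2 change 0.27, edgeR adjusted p = 0.00947). The trm7D and BY4741 libraries did not overlap at any of the 3.

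U106 (SNR44) had 83.9% to 104% in trm7D, against 68.4% to 81.2% in BY4741 (log2 change 0.32, edgeR adjusted p = 8.27e-07). The 2 targets of SNR161 also rose without overlap. U632 had 59.97% to 64.9% in trm7D, against 49.9% to 56.1% in BY4741 (log2 change 0.23, edgeR adjusted p = 4.91e-06). U766 had 53.3% to 57.5% in trm7D, against 48.7% to 52.4% in BY4741 (log2 change 0.14, edgeR adjusted p = 2.61e-04). The median log2 change over the 14 pseudouridines was 0.17, and 12 of the 14 were above 0. The most protected pair did not pass: the log2 change was 0.31 at U1187 (edgeR adjusted p = 0.128) and -0.02 at U1290 (edgeR adjusted p = 0.918).

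**Figure D3:**
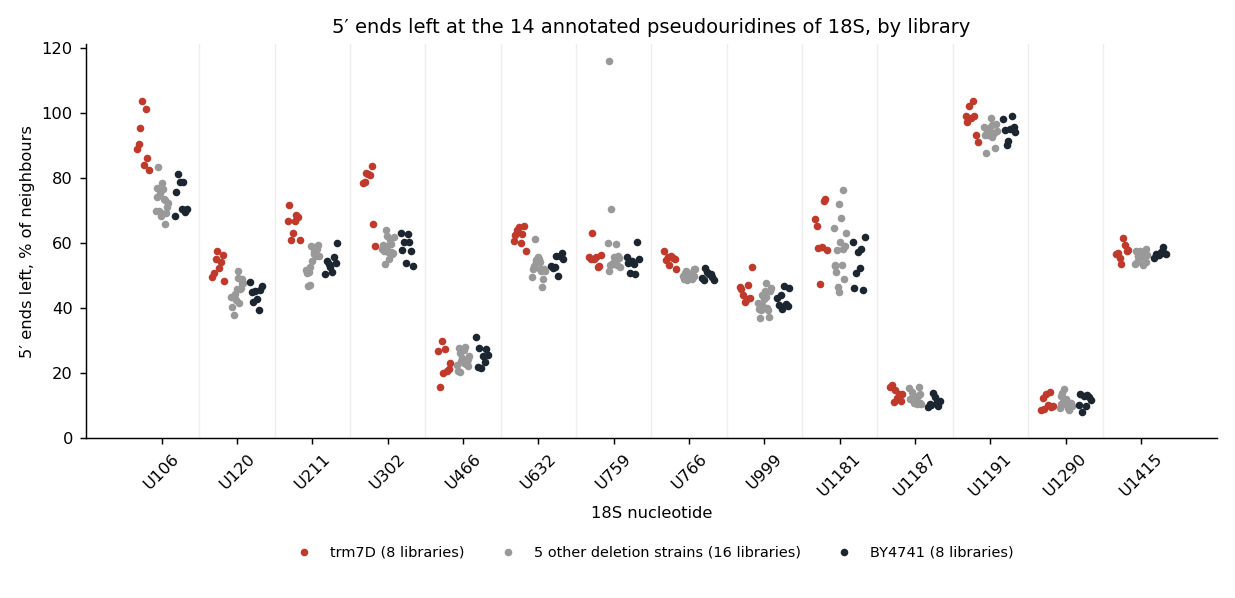
Percentage of 5′ ends left (y axis, linear scale) at the 14 annotated pseudouridines of 18S rRNA (x axis), 1 point per library. Red points are trm7D, grey points the 5 other deletion strains, black points BY4741. At U302 the 6 trm7D libraries of the end-treatment set sit at 78.4% or more, above every other library.

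Of the 73 unannotated nucleotides protected in every BY4741 library, 71 could be tested in the end-treatment set. None of the 71 was called in trm7D, a share near the 1.34% of all unannotated 18S nucleotides. Their median log2 change was -0.02, with 27 above 0 and 44 below. G1107, whose ends were as few as those at the methylation sites, had a log2 change of 0.27 (edgeR adjusted p = 0.440), and A1694 had -0.32 (edgeR adjusted p = 0.464). G562 was too sparsely covered for the test, with 0 to 8 ends per trm7D library and 4 to 7 per BY4741 library of the end-treatment set. C1280 and G1575 changed by 0.03 and 0.05 on the log2 scale (edgeR adjusted p = 0.659 and 0.449).

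The plain set, rep2 in the header, holds other libraries of both strains, 2 against 2. What the 2 sets share beyond the strains is not given in the sources used here. There 1 of 1741 tested 18S positions was called in trm7D, with 0.246% called over the table, and it was U106. It had 86.3% and 82.4% of ends left in trm7D, against 69.7% and 70.5% in BY4741 (log2 change 0.27, edgeR adjusted p = 0.0243). This call was lost in 5 and kept in 5 of the alternative settings and left-out libraries. At an unadjusted p under 0.05 there were 92 positions. All 13 annotated nucleotides called in the end-treatment set had the same sign in the plain set, and 7 of them had an unadjusted p under 0.05. Of the 23 other called 18S positions, 19 had the same sign and 7 an unadjusted p under 0.05. How many of all tested 18S positions had the same sign in both sets was not counted. G1271 had 0.712% and 0.389% of ends left in trm7D, against 1.71% and 1.20% in BY4741, a log2 change of -1.34 with a standard error of 0.46 (edgeR adjusted p = 0.534). U302 had 66.0% and 59.0% in trm7D, against 57.6% and 53.0% in BY4741, a log2 change of 0.18 (edgeR adjusted p = 0.826). The median log2 change was -0.36 over the 12 methylation sites and 0.13 over the 14 pseudouridines. No 18S position passed the test of a difference between the 2 sets in the trm7D change (0 of the table's 5276 positions, 0%, with 61 18S positions at an unadjusted p under 0.05).

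**Figure D4:**
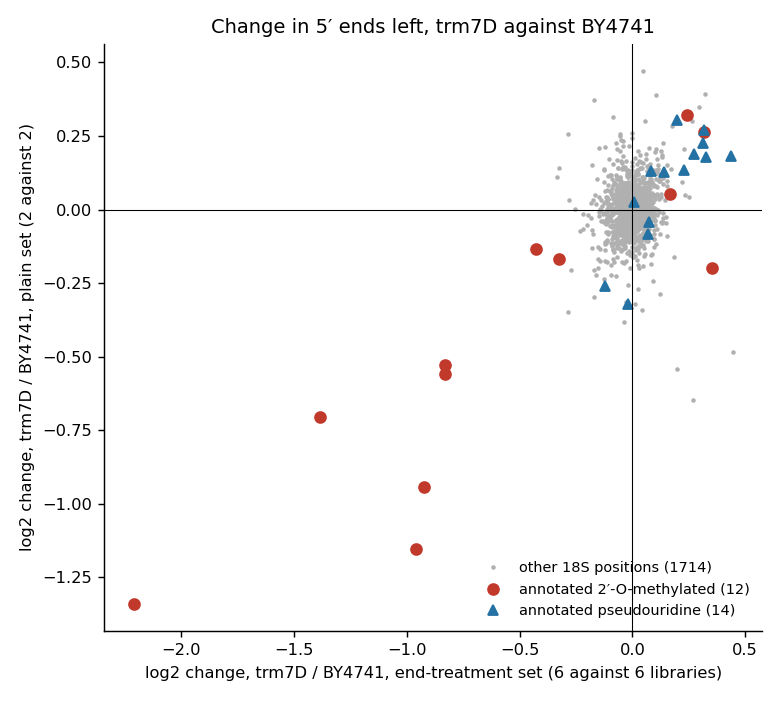
log2 change in ends left in trm7D against BY4741 at 18S positions, in the end-treatment set (x axis) and in the plain set (y axis). Red circles are the 12 testable 2′-O-methylated nucleotides, blue triangles the 14 pseudouridines, grey points all other tested positions. G1271 lies farthest from the centre at -2.21 and -1.34, and the called pseudouridines lie to the upper right.

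Without the trm7D f20 AnP library 23 18S positions were called, and without the trm7D f20 T4PNK library 59. In each of the 12 fits that left out 1 library the 13 annotated nucleotides kept their direction and the 6 pseudouridines stayed called, while 5 to 7 of the 7 methylation sites did, with losses at U1269 and A796 alone. When ends were scaled to the library and not to the neighbours (trimmed mean of M-values, TMM), all 7 methylation sites stayed called and 3 of the 6 pseudouridines did.

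In trm3D, none of 1741 18S positions was called in the plain set (0% over the table). In edgeR 100 of them had an unadjusted p under 0.05, and DESeq2 called 0 at an adjusted p under 0.05. In the end-treatment set 73 of 1740 were called (33 higher, 40 lower), with 5.74% called over the table. A619, guided by SNR47, was the single annotated nucleotide among them. It had 1.71% to 2.71% of ends left in trm3D (median 2.03%), against 1.65% to 1.97% in BY4741 (median 1.73%), so that the groups overlapped (log2 change 0.28, edgeR adjusted p = 0.0311). This call was lost in 8 and kept in 9 of the alternative settings and left-out libraries. The called changes were small, with a median size of 0.12 on the log2 scale. The first by p-value was A515, with 128% to 161% in trm3D, against 120% to 138% in BY4741 (log2 change 0.21, edgeR adjusted p = 0.00205). G877 (log2 change 0.27), A733 (0.11), A331 (-0.16) and A993 (0.10) followed. Leaving out 1 library gave between 25 calls (without BY4741 f10 AnP) and 78. The count was 28 without BY4741 f20 AnP, f10 rSAP or f20 rSAP, and 42 without trm3D f20 T4PNK, 38 without trm3D f10 rSAP and 34 without trm3D f20 rSAP. No 18S position passed the test of a difference between the sets (0%, with 108 at an unadjusted p under 0.05). The median over the 12 methylation sites was 0.18 in the end-treatment set and -0.08 in the plain set.

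In trm13D, none of 1741 18S positions was called, with 0.0189% over the table. In edgeR 87 of them had an unadjusted p under 0.05, and DESeq2 called 0 at an adjusted p under 0.05. The log2 changes of the 12 methylation sites ran from -0.60 to 0.14 with a median of -0.06, and those of the 14 pseudouridines from -0.10 to 0.26.

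In trm44D 18 positions were called (8 higher, 10 lower), with 1.21% over the table. In trm732D 19 were called (8 higher, 11 lower), with 1.74% over the table. Scaled to the library (TMM), the split was 22 higher and 45 lower in trm44D, and 1 higher and 25 lower in trm732D. In rtt10D 59 were called (19 higher, 40 lower), with 3.71% over the table. None of the 12 methylation sites was among them in these 3 strains. The median standard error at these sites was 0.31 to 0.32 on the log2 scale, against 0.056 to 0.057 at unannotated 18S positions. Changes of the size called elsewhere could thus be missed at the methylation sites. The 2 partners of Trm7 had median log2 changes of 0.08 (trm732D) and -0.11 (rtt10D) at the methylation sites, and -0.03 and 0.01 at the pseudouridines. At G1271 the log2 change was -0.65 in trm732D (edgeR adjusted p = 0.510) and -0.38 in rtt10D (edgeR adjusted p = 0.679). Whether these differ from the trm7D change was not tested.

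The positions called in these 3 strains were mostly without annotation, and the median size of the called changes was 0.23 (trm44D), 0.17 (trm732D) and 0.18 (rtt10D) on the log2 scale. All 3 strains were set against the same 2 BY4741 libraries, so their calls are not independent. C883 had 76.3% and 71.9% of ends left in trm44D, 77.6% and 73.2% in trm732D, and 76.9% and 71.5% in rtt10D, against 87.8% and 87.3% in BY4741. Its log2 changes were -0.24, -0.22 and -0.24 in the same order (edgeR adjusted p = 0.00136, 0.00402 and 0.00105). In the plain libraries of trm3D, trm7D and trm13D C883 lay between 85.0% and 90.4%. In the end-treatment set, over all its strains, C883 had 63.0% to 90.65% in f10 libraries and 46.98% to 64.5% in f20 libraries. G1292 had 179% and 185% in trm44D, 170% and 182% in trm732D, and 181% and 183% in rtt10D, against 158% and 158% in BY4741 (log2 changes 0.20, 0.15 and 0.20). A1382 had 195% and 194% in rtt10D, against 174% and 169% in BY4741 (log2 change 0.18), and G631 had 94.2% and 92.5% in trm732D, against 109% and 105% in BY4741 (log2 change -0.19).

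Pseudouridines called in these 3 strains were U1290 and U632. U1290 had 9.19% and 8.53% of ends left in trm44D, against 12.8% and 11.8% in BY4741 (log2 change -0.47, standard error 0.11, edgeR adjusted p = 0.0209). U632 had 46.7% and 49.1% in trm732D, against 56.9% and 55.2% in BY4741 (log2 change -0.23, standard error 0.04, edgeR adjusted p = 0.00534). The U1290 call was lost in 4 and kept in 6 of the alternative settings and left-out libraries, the U632 call was lost in 3 and kept in 7, and the G1292 call in trm732D was lost in 5 and kept in 5. The U632 change has the opposite sign to that in trm7D in the end-treatment set. Without BY4741 replicate 1 the strains trm44D, trm732D and rtt10D had 6, 3 and 37 calls, and without BY4741 replicate 2 they had 6, 4 and 8. Without the strain's own replicate 1 the counts were 2, 25 and 25, and without its replicate 2 they were 3, 3 and 3.

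The comparison of f20 with f10 libraries had the most calls. Between 9 f20 and 9 f10 libraries, 768 of 1740 18S positions were called (356 higher, 412 lower), with 51.3% called over the table. None of the 12 methylation sites was among them, and their median log2 change was -0.10. The median standard error at these sites was 0.14, against 0.028 at unannotated 18S positions. The called changes had a median size of 0.12, which could be missed at the methylation sites. U1473 was first by p-value, with 89.7% to 105% of ends left in f20 libraries (median 97.7%), against 66.3% to 74.8% in f10 libraries (median 68.0%), a log2 change of 0.50 (edgeR adjusted p = 1.76e-14). C160 rose with 160% to 193% in f20 libraries, against 121% to 139% in f10 libraries (log2 change 0.45). C696 fell with 42.5% to 54.6% in f20 libraries, against 59.2% to 73.0% in f10 libraries (log2 change -0.48).

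The neighbouring nucleotides U711, G712 and A713 all fell. U711 had 13.4% to 16.4% in f20 libraries, against 21.4% to 27.4% in f10 libraries (log2 change -0.65), and G712 had 9.31% to 11.6% in f20 libraries, against 15.3% to 18.1% in f10 libraries (log2 change -0.71). A713 had 3.16% to 4.55% in f20 libraries, against 4.71% to 6.28% in f10 libraries (log2 change -0.53, edgeR adjusted p = 4.48e-08). Of the 71 tested nucleotides that were protected without annotation, 39 were called, 25 of them lower. Among pseudouridines 5 of 14 (35.7%) were called. Over all tested 18S positions 44.1% were called, and 23.7% were called lower. U1290 had 12.2% to 15.2% in f20 libraries, against 8.14% to 11.2% in f10 libraries (log2 change 0.49, edgeR adjusted p = 1.15e-08). U466 had 15.9% to 23.6% in f20 libraries, against 22.5% to 31.1% in f10 libraries (log2 change -0.38, edgeR adjusted p = 1.36e-04). U106, U632 and U211 changed by 0.12, 0.07 and 0.07 on the log2 scale. When ends were scaled to the library (TMM), these 3 turned to -0.017 at U106, -0.11 at U211 and -0.065 at U632, and none of the 3 was called.

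End treatments were compared over 6 libraries each, and the highest log2 change among 18S positions was that of U699 between rSAP and T4PNK. Between AnP and T4PNK 461 of 1740 18S positions were called (199 higher, 262 lower), with 29.9% over the table. Between rSAP and T4PNK there were 50 (28 higher, 22 lower), with 3.54% over the table. Between rSAP and AnP there were 214 (127 higher, 87 lower), with 15.6% over the table. Those 3 comparisons share libraries in pairs. Without trm7D f10 AnP the last count was 128, and without trm3D f10 T4PNK the count between rSAP and T4PNK was 32.

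U699 had 57.3% to 76.9% of ends left in rSAP libraries (median 69.7%), 37.96% to 46.8% in AnP libraries (median 41.4%) and 24.9% to 39.5% in T4PNK libraries (median 28.4%). The rSAP libraries stood above all others, while 1 T4PNK library lay inside the AnP range. The log2 change was 1.18 between rSAP and T4PNK (standard error 0.11, edgeR adjusted p = 3.61e-05), 0.70 between rSAP and AnP (adjusted p = 0.00158) and 0.48 between AnP and T4PNK (adjusted p = 0.00741). A1337, which follows the protected A1336, was itself under 25% in all of these libraries. It had 8.36% to 14.1% in rSAP libraries, 7.72% to 8.91% in AnP libraries and 5.15% to 7.20% in T4PNK libraries (log2 change 0.94 between rSAP and T4PNK, edgeR adjusted p = 1.17e-05). G1480 and C1476 were likewise higher with rSAP than with T4PNK, by 0.27 and 0.38 on the log2 scale.

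The median size of the log2 change over all tested 18S positions was 0.053 between AnP and T4PNK, 0.031 between rSAP and T4PNK and 0.042 between rSAP and AnP. U813 had 186% to 210% in AnP libraries, against 230% to 247% in T4PNK libraries (log2 change -0.23), and G913 had 61.9% to 78.4% in AnP libraries, against 53.9% to 63.9% in T4PNK libraries (log2 change 0.27). Of the annotated nucleotides, U106 (log2 change 0.13), U632 (0.09), A619 (0.21) and G1271 (-0.67) were called between AnP and T4PNK, A619 (0.27) between rSAP and T4PNK, and U106 (-0.10) between rSAP and AnP. Over the alternative settings and left-out libraries, the U106 call between rSAP and AnP was lost in 17 and kept in 6. The A619 call was lost in 11 and kept in 12 between rSAP and T4PNK, and lost in 7 and kept in 16 between AnP and T4PNK. The G1271 call was lost in 5 and kept in 18. The value at U632 turned to -0.0095 with a window of 2 neighbours on each side, and those at U106 and U670 (-0.27 relative to neighbours) turned to -0.077 and 0.012 under TMM. All 17 methylation sites stayed protected under every end treatment.

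**Figure D5:**
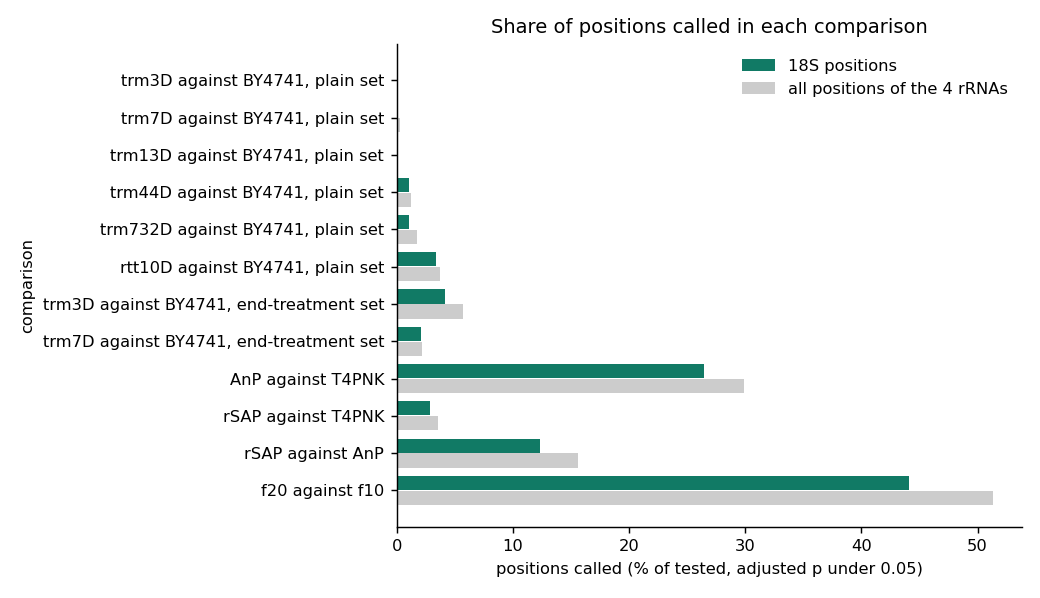
Share of positions called (x axis, percent of those tested, edgeR adjusted p under 0.05) in each comparison (y axis). Green bars are the 18S positions and grey bars all positions of the 4 rRNAs. The f20 against f10 bars are the longest at 44.1% and 51.3%, and the strain comparisons stay at 5.74% or less.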

How the data were processed

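The authors' deposited table gives the count of 5′ ends at each position of 4 rRNAs in 32 libraries. The submitters' processing notes name TopHat2 2.0.12, HOMER 4.6 and SAMtools with the build sacCer3. Which of them served the rRNA mapping is not given in the sources used here. No reads were used. Site positions were read from the snoRNA notes of the RefSeq annotation (R64). Where the note of 1 of the 31 sites named a base, the RDN18-1 sequence had it. Notes that named a position alone gave no such check. Over shifts of -2 to 2, the 17 methylation sites were protected only when read 1 position downstream (17 of 17, against at most 3 at another shift).

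The weights of the 6 neighbours on each side fell from 1 to 0.5 with distance, and a percentage was given where the neighbour mean was at least 10. Comparisons used edgeR 4.0.16 (R 4.3.3): quasi-likelihood fits to the counts with the log neighbour mean as offset, strain as the factor in the plain set, and strain, f label and end treatment in the end-treatment set, on positions with a mean count of at least 10 in all 4 rRNAs, with Benjamini-Hochberg adjustment over the whole table. Differences are log2 ratios of ends left. The script was tested on simulated data with known changes. Intervals and floors cover counting error only, since the reads carry no molecular identifiers that the sources name. Libraries of a strain differed by more than counting noise (chi-square per position of at least 5.15), so each was counted as its own library.

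Alternatives were TMM scaling, a window of 2, annotated ribose methylation sites left out of the neighbours, DESeq2 1.42.0, no count filter, a replicate block and each library left out. Named positions are the annotated sites, the 10 most protected others, and for each comparison the 5 called positions with the smallest p plus called annotated sites. C1773 had no value, being near the 3′ end, and the other files of the series were not used here. Tests were chosen, and lists were drawn from the annotation, with earlier results of these data known.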

Additional observations from a re-analysis of the deposited data

Results flagged for a closer look

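Among 93 groups of 6 libraries at the 31 annotated sites, 5 had a library that lay far from the others by Dixon's test. Chance at 1 in 20 would flag about as many if the 6 libraries were replicates. They differ in f label and end treatment, so that rate need not hold, and the cause was not tested. In trm3D f10 AnP, U759 had 116% of ends left, with the next library at 70.6%, and U1191 had 87.7%, with the next at 93.3%. In trm7D f10 AnP, U759 had 63.1%, with the next at 55.8%. In trm7D f20 rSAP, A100 had 13.2%, with the next at 14.4%. In trm7D f20 T4PNK, G1428 had 0.284% from 7 ends, with the next at 0.0986%. U759 and U1191 were not called in any strain comparison, and A100 stayed called in trm7D without that library.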

How the results depend on the processing

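Scaled to the library (TMM) and not to neighbours, the counts of called 18S positions were 0 for trm7D in the plain set, 67 for trm44D, 143 for trm3D and 94 for trm7D in the end-treatment set, 809 for AnP against T4PNK, 468 for rSAP against AnP and 1257 for f20 against f10. TMM also turned U106 (-0.077) and U670 (0.012) between AnP and T4PNK, and U106 (-0.017), U211 (-0.11) and U632 (-0.065) between f20 and f10. With a window of 2 the counts were 7 for trm732D, 23 for rtt10D, 285 for AnP against T4PNK and 114 for rSAP against AnP, and U632 turned to -0.0095 between AnP and T4PNK. DESeq2 called 8 in trm44D, 5 in trm732D and 25 in rtt10D. With annotated ribose methylation sites left out of the neighbours trm7D had 2 calls in the plain set. The cause was not tested in any of these. Leaving out 1 library gave 0 to 2 calls for trm3D, 0 to 3 for trm7D, 0 for trm13D, 2 to 6 for trm44D, 3 to 25 for trm732D and 3 to 37 for rtt10D in the plain set. It gave 25 to 78 for trm3D and 23 to 59 for trm7D in the end-treatment set, 321 to 478 for AnP against T4PNK, 32 to 57 for rSAP against T4PNK, 128 to 260 for rSAP against AnP and 716 to 767 for f20 against f10. A plain strain left with 1 library was assumed to vary like the others. All 17 methylation sites stayed protected under each alternative but a score of 0.9, where 16 did. With the replicate number as a block in the plain set the counts were 0 for trm3D, 1 for trm7D, 0 for trm13D, 18 for trm44D, 19 for trm732D and 64 for rtt10D. The reported fits did not pair the samples by number. Across 21 strain pairs, the differences between libraries 1 and 2 correlated at -0.24 to 0.211 (median -0.0127), with 4 pairs over 0.1. Whether some libraries share a batch was not tested. Depth limits the methylation sites most: 5 of the 17 averaged under 10 ends.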
